A study of Homo sapiens with 5 samples.

Results

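Axon guidance genes encode the cues and receptors that steer growing neurites, and 73 of the 57905 genes of an expression table matched the symbols of their families: semaphorins, plexins, neuropilins, ephrins, Eph receptors, Slits, Robos, netrins, and the UNC5 and DCC receptors. The symbols were taken by a name pattern, 3 further rows with a hyphen (annotated antisense transcripts) being left out. Of the 73, 69 belong to 11 guidance families, and 4 matched by name only. RNA was sequenced from 5 established human cell lines, 1 library per line, all labelled WT in genotype, with no treatment named, and grown in RPMI with serum. MCC13 was set against WaGa, MKL-1 and MKL-2, and all 4 are labelled Merkel cell carcinoma, a skin cancer with neuroendocrine features. The Merkel cell carcinoma lines were then set against REH, the 1 line labelled pre-B-cell acute lymphoblastic leukemia. The series as a whole is about PAX5 in Merkel cell carcinoma, and the guidance genes are described here across its lines.

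Guidance cues work as ligand and receptor pairs. Semaphorins signal through plexins, with neuropilins as co-receptors for most secreted class 3 members. Ephrins are membrane-bound ligands of the Eph receptor tyrosine kinases, and signals pass into both cells that touch. Slits repel growth cones through Robo receptors, while netrins attract through DCC and repel through UNC5 receptors. The same genes also act in blood vessels, immune cells and tumours, where they affect adhesion, migration and survival.

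Levels were deposited as TPM (a transcript level per length, scaled to 1 fixed total in each library), so the depth behind a value was unknown. With 1 library a line, effects of line and of library cannot be told apart, and every error below is a spread between lines. In bulk RNA, fewer cells of a type and less RNA per cell cannot be told apart. The labelled cell type was checked with 8 Merkel or neuroendocrine markers (ATOH1, SOX2, ISL1, INSM1, POU4F3, KRT20, CHGA and SYP). In MCC13 1 of the 8 reached 1 TPM and 4 were listed at 0 (ATOH1, INSM1, ISL1 and KRT20), with a sum of 4.75 TPM, whereas all 8 did in WaGa, MKL-1 and MKL-2, with sums of 3770 to 7353 TPM. The 6 mesenchymal markers summed to 8805 TPM in MCC13, against 15.3 to 22.7 TPM in WaGa, MKL-1 and MKL-2 and 963 TPM in REH. MCC13 is therefore named by its line, and the part of these markers in its differences was not tested. In REH 5 of 6 early B markers reached 1 TPM (sum 5093 TPM), while VPREB1 was listed at 0 in all 5 lines. The early B sum stood at 2.67 to 23.3 TPM in the Merkel cell carcinoma lines. T cell markers did not exceed 0.0426 TPM in any line. REH also had 21 genes listed at 0 that stood at 50 TPM or more in every other line, against 0 or 1 such genes in each of the others. An exact 0 can be a failed estimate, so the text gives no fold or difference for a line or group listed at 0 throughout (the plots of differences hold such genes).

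Most guidance genes were expressed in most lines. At 1 TPM or more stood 50 of the 73 genes in MCC13, 50 in WaGa, 56 in MKL-1, 53 in MKL-2 and 40 in REH. As shares these were 68.5% in MCC13, 68.5% in WaGa, 76.7% in MKL-1, 72.6% in MKL-2 and 54.8% in REH, beside 27.5% to 29.2% of all genes. All 5 lines passed that level for 27 of the 73, and 4 stayed below it in every line. These 4 were EPHA8 (0 to 0.335 TPM), PLXNA4 (0.0258 to 0.671 TPM), the pseudogene ROBO2P1 and a second row named EFNA3.

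**Figure D1:**
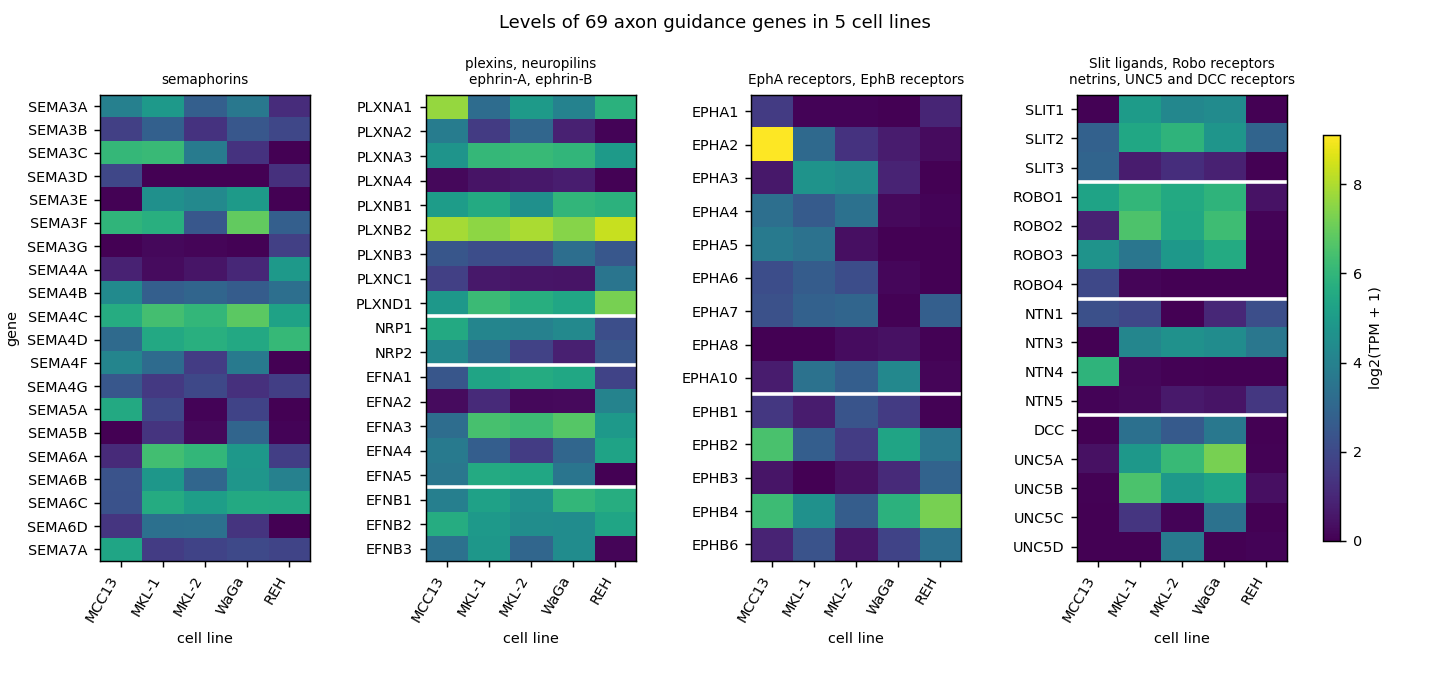
Levels of the 69 guidance genes (rows, grouped by family) in the 5 cell lines (columns), coloured by log2(TPM + 1), 1 library per line. EPHA2 in MCC13 (536 TPM) and PLXNB2 in REH (325 TPM) are the brightest cells, and the UNC5 and DCC receptors are dark in MCC13 and REH.

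The balance between families differed by line. Eph receptors of the A class summed to 567 TPM in MCC13, of which EPHA2 gave 94.4%, against 20.1, 67.8 and 48.4 TPM in WaGa, MKL-1 and MKL-2 and 7.01 TPM in REH. Their ephrin-A ligands ran the other way in MCC13, at 36.6 TPM against 164, 179 and 166 TPM in WaGa, MKL-1 and MKL-2, with 85.0 TPM in REH. Slit ligands summed to 12.7 TPM in MCC13, 46.3, 73.1 and 78.6 TPM in WaGa, MKL-1 and MKL-2, and 6.597 TPM in REH. UNC5 and DCC receptors summed to 0.365 TPM in MCC13, 212, 129 and 117 TPM in WaGa, MKL-1 and MKL-2, and 0.398 TPM in REH. MCC13 and REH thus stood together at the low end for both of these families. Robo receptors separated the lines in another way, with 66.4 TPM in MCC13, 182, 167 and 115 TPM in WaGa, MKL-1 and MKL-2, and 0.432 TPM in REH. Plexins were the most abundant receptor family in WaGa, MKL-1, MKL-2 and REH (364 to 631 TPM), and PLXNB2 led them in all 5 lines.

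**Figure D2:**
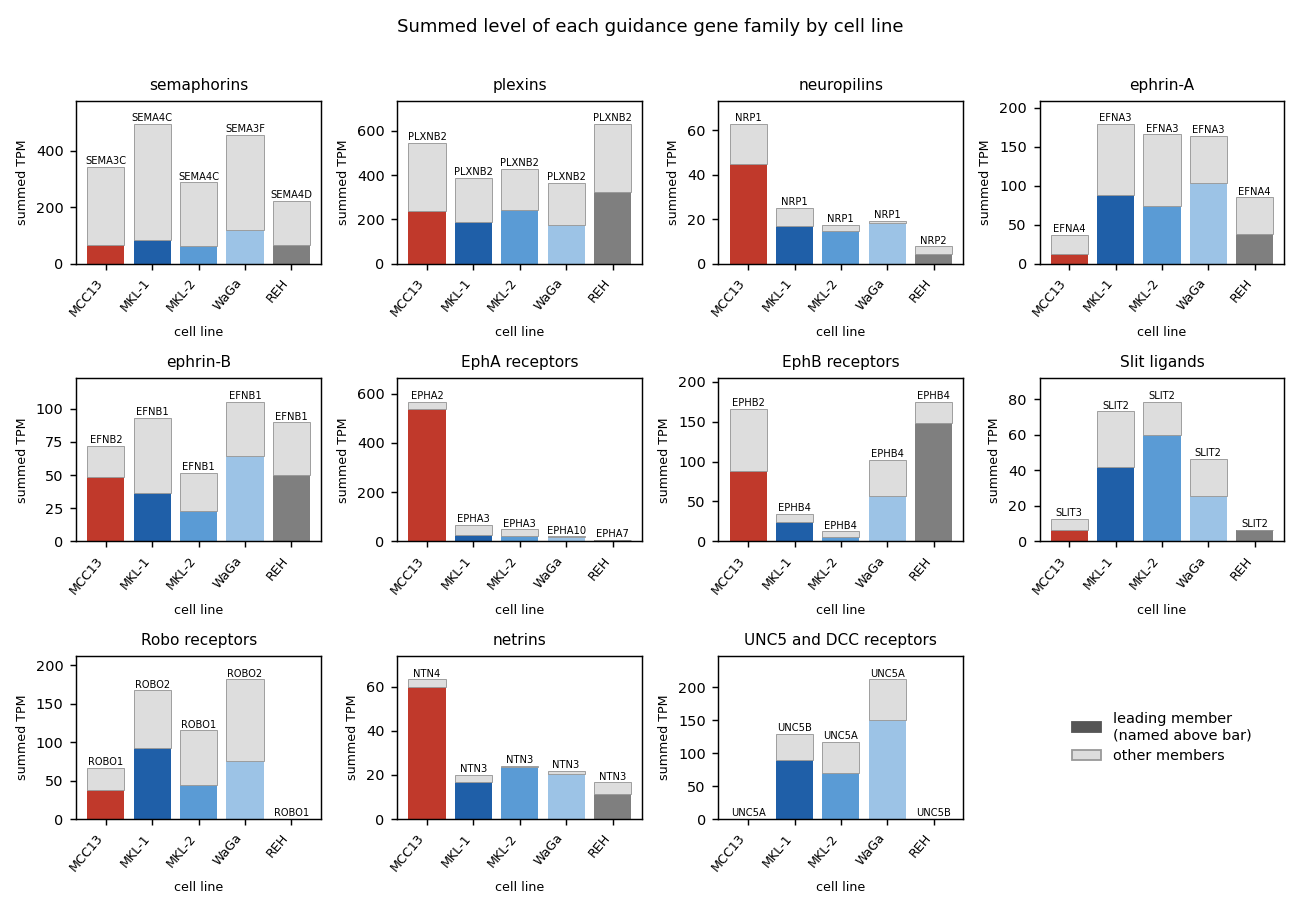
Summed TPM of each of the 11 families (y axes, linear and starting at 0, a scale for each panel) in the 5 lines (x axis, 1 library each). The coloured part of a bar is the leading member, named above it, and the pale part the other members; EPHA2 fills 94.4% of the EphA bar of MCC13 and NTN4 94.2% of its netrin bar.

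The comparisons used limma on log2(TPM + 1) values. A gene was tested where any line compared reached 1 TPM. A gene passed at a Benjamini-Hochberg adjusted p under 0.05 over all genes tested. Each difference is the first-named minus the second-named group in log2(TPM + 1), ± its SE, and understates the change of low genes. Over all genes tested the median difference was -0.30 for MCC13 against WaGa, MKL-1 and MKL-2, 0.18 for the 4 Merkel cell carcinoma lines against REH, and 0.20 without MCC13. The 3 comparisons share lines and are not independent of each other.

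In MCC13, 15 of 66 guidance genes tested differed from WaGa, MKL-1 and MKL-2 (22.7%), beside a background of 8.95% of all genes. Of these, 6 were higher (9.09%, background 6.47%): SEMA3D, SEMA7A, PLXNC1, EPHA1, ROBO4 and NTN4. The other 9 were lower (13.6%, background 2.47%): SEMA3E, SEMA4D, SEMA6C, EFNA1, EFNA3, SLIT1, ROBO2, NTN3 and UNC5B. The median difference was -0.09 over the guidance genes. MCC13 lay above the range of the other 3 lines for 22 of the 66 (33.3%, background 27.7%) and below it for 25 (37.9%, background 43.4%). The 5 genes that entered the test only through MCC13 were all among those called (SEMA3D, PLXNC1, EPHA1, ROBO4 and NTN4), as were 5 of the 16 that entered only through the other 3 lines (SEMA3E, SLIT1, ROBO2, NTN3 and UNC5B). For these the filter itself required a difference, so the count is no support for them. Among genes averaging 5 TPM or more, 3 guidance genes were higher and 10 lower of 48, and all genes divided into 543 higher and 624 lower of 13268, so the background of each direction depends on the filter. With WaGa, MKL-1 or MKL-2 left out, none of the guidance genes and none of all genes passed limma's adjusted threshold (27 to 29 guidance genes at unadjusted p under 0.05). An exact permutation of 1 line against 3 cannot give p below 0.25.

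**Figure D3:**
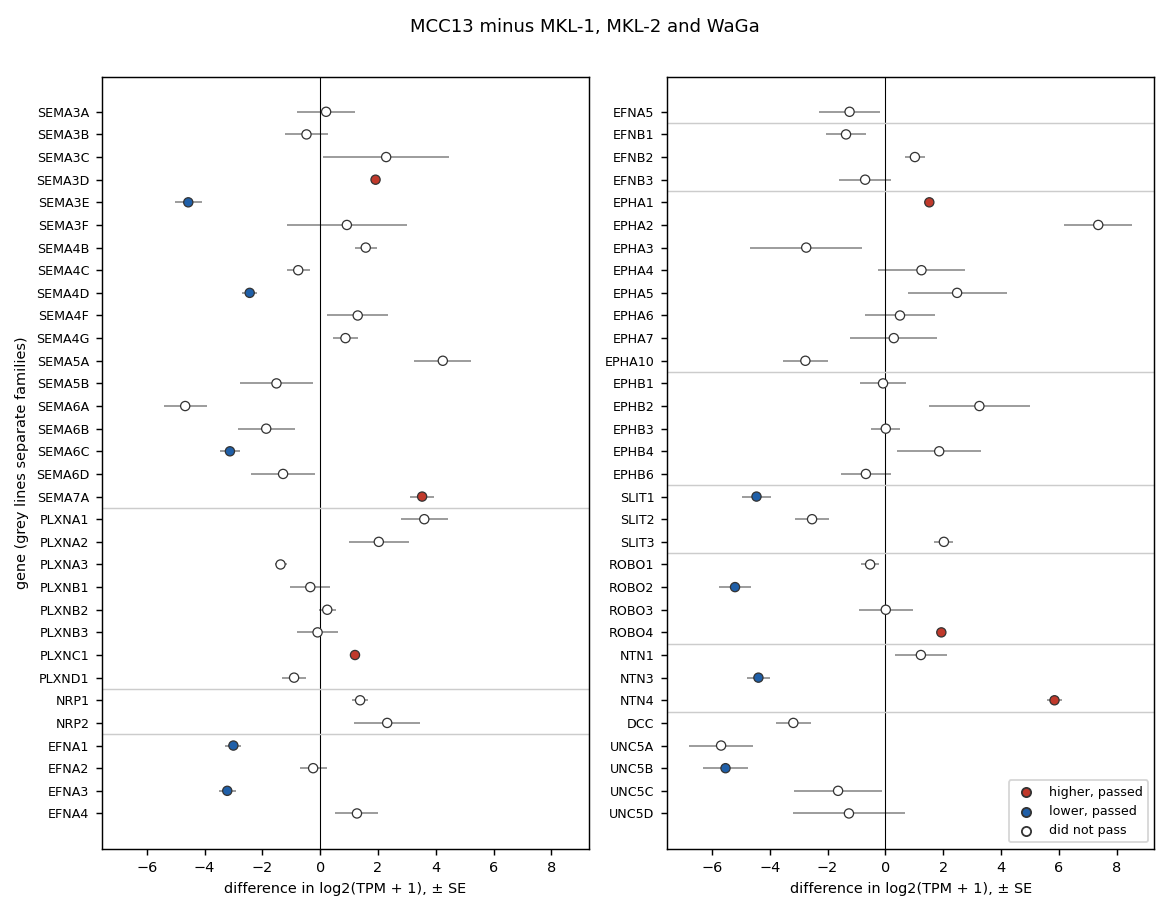
Difference in log2(TPM + 1) between MCC13 and the mean of WaGa, MKL-1 and MKL-2 for each guidance gene tested (points, bars ± SE from limma; filled red higher and filled blue lower at adjusted p under 0.05, open not passing). EPHA2 lies farthest right (7.36) yet is open (limma, adjusted p = 0.0600).

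Against REH, 4 of 69 guidance genes differed in the 4 Merkel cell carcinoma lines (5.80%, background 5.24%): ROBO1 was higher (1.45%, background 1.09%), and EFNA2, SEMA3G and SEMA4A were lower (4.35%, background 4.15%). The shares were near the background. With a pseudocount of 0.1 the balance of the guidance genes turned to 3 higher and 0 lower. All 22250 genes tested moved the same way, from 243 higher and 923 lower to 403 higher and 482 lower. In WaGa, MKL-1 and MKL-2 alone, 11 of 66 differed from REH (16.7%, background 13.3%). Higher were 6, namely EFNA1, ROBO1, ROBO2, SEMA3E, SLIT1 and UNC5B (9.09%, background 4.89%), and lower were 5, namely EFNA2, PLXNC1, SEMA3D, SEMA3G and SEMA4A (7.58%, background 8.42%). This balance also depended on the setting, with 13 higher and 3 lower at a pseudocount of 0.1, and 10 against 1 where a mean of 5 TPM was required. The balance of all genes moved the same way. It was 1038 higher and 1790 lower of 21247 in the main fit, and 1483 against 1210 at a pseudocount of 0.1. Where a mean of 5 TPM was required it was 1158 against 683 of 13295. Of the 4 genes called with MCC13, 3 entered the test through 1 side only (ROBO1 through the Merkel cell carcinoma lines, SEMA3G and SEMA4A through REH). Of the 11 called without it, 9 did so (SEMA3E, SLIT1, ROBO1, ROBO2 and UNC5B through WaGa, MKL-1 and MKL-2, and SEMA3D, SEMA3G, SEMA4A and PLXNC1 through REH). For these the filter again required a difference. The median differences were 0.83 with MCC13 and 1.13 without it. REH lay below the range of WaGa, MKL-1 and MKL-2 for 33 of 66 guidance genes (50%, background 40.9%) and above it for 18 (27.3%, background 32.4%). No guidance gene and no other gene passed limma's adjusted threshold in either comparison when WaGa, MKL-1 or MKL-2 was left out (12 to 15 guidance genes with MCC13, and 22 to 28 without it, at unadjusted p under 0.05).

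**Figure D4:**
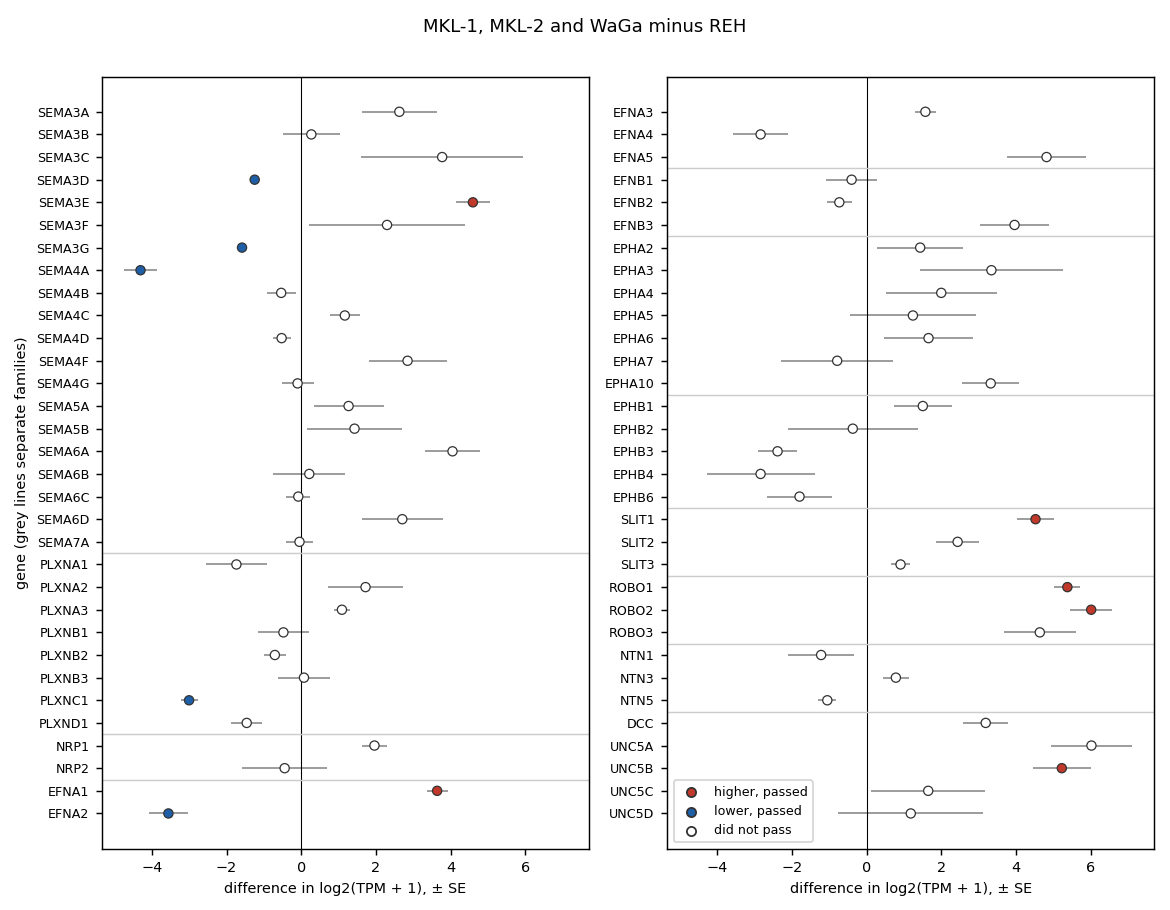
Difference in log2(TPM + 1) between the mean of WaGa, MKL-1 and MKL-2 and REH for each guidance gene tested (points, bars ± SE from limma; filled red higher and filled blue lower at adjusted p under 0.05, open not passing). ROBO2 (6.01) and ROBO1 (5.37) lie to the right and SEMA4A (-4.30) to the left.

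Promoter windows of 4 genes, chosen after their values were seen, are shown as examples from the MCC13 contrast: SLIT1 and EFNA1 as ligands that were lower there, though not those with the largest difference, NTN4 as the ligand with the largest passing increase, and EPHA2 as the receptor with the largest difference, which did not pass. The windows run 5′ to 3′ from 250 bases before to 50 bases after a RefSeq transcription start (GRCh38.p14), on the gene's strand. Capitals mark the only motif match in a window, CATTCC, the core that TEAD factors bind, or its reverse complement GGAATG; SLIT1 and EFNA1 hold none of the 3 motifs searched. They lie at chr10:97185910-97186209 (SLIT1, minus strand), chr1:155127626-155127925 (EFNA1, plus strand), chr1:16156020-16156319 (EPHA2, minus strand) and chr12:95791106-95791405 (NTN4, minus strand, the first of 2 windows).
SLIT1: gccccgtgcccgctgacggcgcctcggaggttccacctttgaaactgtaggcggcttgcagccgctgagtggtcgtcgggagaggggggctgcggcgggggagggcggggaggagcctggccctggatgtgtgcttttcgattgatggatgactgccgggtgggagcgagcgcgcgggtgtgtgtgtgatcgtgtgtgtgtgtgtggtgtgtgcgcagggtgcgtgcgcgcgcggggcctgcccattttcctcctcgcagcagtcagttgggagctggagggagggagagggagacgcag
EFNA1: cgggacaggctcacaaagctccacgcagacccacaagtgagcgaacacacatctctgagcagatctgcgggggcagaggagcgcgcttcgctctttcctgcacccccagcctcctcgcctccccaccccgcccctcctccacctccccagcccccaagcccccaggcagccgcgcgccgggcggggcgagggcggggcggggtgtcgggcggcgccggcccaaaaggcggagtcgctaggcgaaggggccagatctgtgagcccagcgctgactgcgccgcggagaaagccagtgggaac
EPHA2: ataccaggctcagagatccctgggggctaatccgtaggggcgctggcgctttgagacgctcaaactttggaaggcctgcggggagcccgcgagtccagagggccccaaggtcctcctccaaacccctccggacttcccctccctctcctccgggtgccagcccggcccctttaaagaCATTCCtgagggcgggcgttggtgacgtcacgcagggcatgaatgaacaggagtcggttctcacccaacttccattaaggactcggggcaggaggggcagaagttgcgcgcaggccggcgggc
NTN4: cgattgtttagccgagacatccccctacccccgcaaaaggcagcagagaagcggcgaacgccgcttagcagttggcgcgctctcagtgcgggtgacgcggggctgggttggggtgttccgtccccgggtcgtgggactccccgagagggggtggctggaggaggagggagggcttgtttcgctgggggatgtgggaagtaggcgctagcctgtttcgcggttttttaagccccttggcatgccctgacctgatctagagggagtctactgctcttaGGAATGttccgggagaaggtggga
The windows hold 27, 28, 20 and 21 CpG pairs in that order. CATTCC was absent on either strand from the second NTN4 window. It was also absent from all windows of SEMA3D, SEMA7A, PLXNC1, EPHA1 and ROBO4, the other genes called higher in MCC13. Whether the motif goes with the direction of a difference was not tested.

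A RefSeq window was matched for 59 of the 69 guidance genes (91 windows). Their median CpG count was 21 with a GC content of 65.7%, beside 14 and 58.7% over all 35116 windows of the same length. The letters CAGCTG, an E-box form read by proneural bHLH factors, were found on either strand in 17 of the 91 windows (18.7%, all windows 17.9%). CATTCC or its reverse complement was found in 10 (11%, all windows 14%). TGANTCA, the AP-1 element, was found in 1 (1.10%, all windows 7.71%). These 3 motifs do not contain each other, and a match is a run of letters, not a bound site.

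Among secreted class 3 semaphorins, which act mainly as repellents, the leading member differed between lines. SEMA3C, a cue of the neural crest and the heart outflow tract, stood at 65.4 TPM in MCC13, 1.55, 70.6 and 12.9 TPM in WaGa, MKL-1 and MKL-2, and a listed 0 in REH. SEMA3F, which acts through neuropilin 2, stood at 61.6 TPM in MCC13, 120.4, 52.8 and 4.51 TPM in WaGa, MKL-1 and MKL-2, and 5.73 TPM in REH. SEMA3A, the classical growth cone repellent, stood at 14.7 TPM in MCC13, 11.5, 28.4 and 5.82 TPM in WaGa, MKL-1 and MKL-2, and 1.20 TPM in REH. These 3 ligands each spread widely among WaGa, MKL-1 and MKL-2, and MCC13 lay inside their range. SEMA3E, which binds plexin D1 without a neuropilin, was lower in MCC13. It stood at 0.0255 TPM in MCC13, 30.4, 22.6 and 18.2 TPM in WaGa, MKL-1 and MKL-2, and 0.00461 TPM in REH. For SEMA3E the difference was -4.56 ± 0.46 (SE, limma, adjusted p = 0.0237) in MCC13 against WaGa, MKL-1 and MKL-2. Against REH, SEMA3E in WaGa, MKL-1 and MKL-2 differed by 4.59 ± 0.46 (SE, limma, adjusted p = 0.0203). Both MCC13 and REH lay far below all 3 other lines.

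SEMA3D, another secreted cue, stood at 2.81 TPM in MCC13, 0.0134 and 0.00945 TPM in MKL-1 and MKL-2, a listed 0 in WaGa, and 1.39 TPM in REH. It was higher in MCC13 (log2 difference 1.92 ± 0.12, SE, limma, adjusted p = 0.00973), and lower in WaGa, MKL-1 and MKL-2 than in REH (log2 difference -1.25 ± 0.10, SE, limma, adjusted p = 0.0146). The call of SEMA3D against REH did not hold without the variance trend of the fit (adjusted p = 0.0582, range over other settings 0.00587 to 0.0582). SEMA3G, which prefers neuropilin 2, was listed at 0 in MCC13 and stood at 0.0343, 0.147 and 0.0870 TPM in WaGa, MKL-1 and MKL-2 and 2.27 TPM in REH. Only the REH library reached 1 TPM. The SEMA3G difference of the 4 Merkel cell carcinoma lines against REH was -1.62 ± 0.18 (SE, limma, adjusted p = 0.0188), and that of WaGa, MKL-1 and MKL-2 was -1.59 ± 0.14 (SE, limma, adjusted p = 0.0162). With all 4 lines the SEMA3G call was lost under a pseudocount of 0.1 and with no variance trend (adjusted p over other settings 0.00348 to 0.0728). SEMA3B, described as a tumour suppressor in lung cancer, stood at 2.30 TPM in MCC13, 4.58, 5.86 and 1.52 TPM in WaGa, MKL-1 and MKL-2, and 2.81 TPM in REH, without a clear order of lines. Its locus holds an annotated antisense transcript, and whether counting used strand is not stated, so this level is uncertain.

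Class 4 semaphorins are transmembrane ligands, several of them of immune cells. SEMA4C, a ligand of plexin B2, was the highest of the class in MCC13, WaGa, MKL-1 and MKL-2, at 49.1 TPM in MCC13, 111, 83.2 and 63.8 TPM in WaGa, MKL-1 and MKL-2, and 36.8 TPM in REH. SEMA4D, the immune semaphorin CD100 and ligand of plexin B1, stood at 7.75 TPM in MCC13, 43.7, 43.6 and 52.5 TPM in WaGa, MKL-1 and MKL-2, and 67.4 TPM in REH. It was lower in MCC13 (log2 difference -2.44 ± 0.26, SE, limma, adjusted p = 0.0268), and MCC13 lay below all 4 other lines. SEMA4A, which acts in T cell priming, stood at 0.833 TPM in MCC13, 0.996, 0.194 and 0.416 TPM in WaGa, MKL-1 and MKL-2, and 28.6 TPM in REH. REH alone expressed it above 1 TPM, with a difference of -4.23 ± 0.51 (SE, limma, adjusted p = 0.0213) for the 4 Merkel cell carcinoma lines and -4.30 ± 0.44 (SE, limma, adjusted p = 0.0210) for WaGa, MKL-1 and MKL-2. Both SEMA4A calls were lost with a pseudocount of 0.1, and that with all 4 lines also among genes averaging 5 TPM or more (adjusted p over other settings 0.0190 to 0.0825 and 0.0124 to 0.0553).

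SEMA4B stood at 19.6 TPM in MCC13, 5.26, 5.71 and 6.82 TPM in WaGa, MKL-1 and MKL-2, and 9.03 TPM in REH. SEMA4F stood at 16.7 TPM in MCC13, 12.3, 8.12 and 2.04 TPM in WaGa, MKL-1 and MKL-2, and a listed 0 in REH. SEMA4G stood at 4.50 TPM in MCC13, 1.39, 1.87 and 2.94 TPM in WaGa, MKL-1 and MKL-2, and 2.21 TPM in REH. For all 3 of these transmembrane semaphorins MCC13 was the highest of the Merkel cell carcinoma lines, and none passed in any comparison.

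Among the remaining semaphorins, SEMA5A and SEMA7A were highest in MCC13, and class 6 members summed lowest there. SEMA5A, a transmembrane ligand of plexin B3, stood at 45.2 TPM in MCC13, 2.56, 2.80 and 0.0680 TPM in WaGa, MKL-1 and MKL-2, and 0.0132 TPM in REH. For SEMA5A the MCC13 difference was 4.24 ± 0.99 (SE, limma, adjusted p = 0.113). SEMA5B stood at a listed 0 in MCC13, 6.83, 1.60 and 0.138 TPM in WaGa, MKL-1 and MKL-2, and 0.0624 TPM in REH. SEMA7A, a GPI-anchored ligand of plexin C1 and of integrins, stood at 39.7 TPM in MCC13, 2.996, 2.04 and 2.60 TPM in WaGa, MKL-1 and MKL-2, and 2.64 TPM in REH. It was higher in MCC13 (log2 difference 3.53 ± 0.41, SE, limma, adjusted p = 0.0307), while WaGa, MKL-1, MKL-2 and REH lay within 2.04 to 2.996 TPM.

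The 4 class 6 members, transmembrane ligands of class A plexins, summed to 10.7 TPM in MCC13, 101, 165 and 113 TPM in WaGa, MKL-1 and MKL-2, and 61.2 TPM in REH. SEMA6C stood at 3.89 TPM in MCC13, 44.9, 47.9 and 33.3 TPM in WaGa, MKL-1 and MKL-2, and 43.99 TPM in REH. SEMA6C was lower in MCC13 (log2 difference -3.12 ± 0.35, SE, limma, adjusted p = 0.0286). SEMA6A stood at 1.10 TPM in MCC13, 27.8, 80.7 and 63.4 TPM in WaGa, MKL-1 and MKL-2, and 2.23 TPM in REH. For SEMA6A the MCC13 difference was -4.67 ± 0.75 (SE, limma, adjusted p = 0.0604) that did not pass, and passed among genes averaging 5 TPM or more and with a pseudocount of 0.1 (adjusted p over other settings 0.0415 to 0.0869). MCC13 lay below every other line for both genes. SEMA6B stood at 4.07 TPM in MCC13, 26.6, 27.3 and 7.07 TPM in WaGa, MKL-1 and MKL-2, and 14.9 TPM in REH, again lowest in MCC13. SEMA6D stood at 1.68 TPM in MCC13, 1.57, 9.34 and 9.39 TPM in WaGa, MKL-1 and MKL-2, and 0.000379 TPM in REH, with MCC13 and WaGa at like levels. Of 18 semaphorins tested in MCC13, 2 were higher, 3 were lower and 13 did not pass (11.1% higher and 16.7% lower, beside 6.47% and 2.47% of all genes tested). Among those called, SEMA3D entered the test only through MCC13, and SEMA3E only through WaGa, MKL-1 and MKL-2. For these genes the filter required a difference.

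PLXNB2, a receptor of class 4 semaphorins, was the most abundant plexin in every line. It stood at 236 TPM in MCC13, 173, 186 and 243 TPM in WaGa, MKL-1 and MKL-2, and 325 TPM in REH. PLXND1, the SEMA3E receptor, stood at 28.1 TPM in MCC13, 40.9, 73.1 and 51.01 TPM in WaGa, MKL-1 and MKL-2, and 149 TPM in REH. PLXNB1, the SEMA4D receptor, stood at 31.8 TPM in MCC13, 62.6, 46.5 and 22.7 TPM in WaGa, MKL-1 and MKL-2, and 56.9 TPM in REH. REH was the highest line for PLXNB2 and PLXND1, and MCC13 the lowest for PLXND1. PLXNB3 stood at 4.43 TPM in MCC13, 8.84, 3.41 and 3.45 TPM in WaGa, MKL-1 and MKL-2, and 4.50 TPM in REH, with all 5 lines within 3.41 to 8.84 TPM.

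The class A plexins, partners of neuropilins and class 6 semaphorins, differed between lines in their leading member. PLXNA1 led in MCC13 and REH, at 203 TPM in MCC13, 15.2, 8.35 and 30.3 TPM in WaGa, MKL-1 and MKL-2, and 55.01 TPM in REH. For PLXNA1 the MCC13 difference was 3.60 ± 0.81 (SE, limma, adjusted p = 0.108). PLXNA3 led in WaGa, MKL-1 and MKL-2, at 24.9 TPM in MCC13, 61.8, 66.4 and 69.7 TPM in WaGa, MKL-1 and MKL-2, and 30.5 TPM in REH. MCC13 thus had the highest PLXNA1 and the lowest PLXNA3 of all 5 lines, and neither passed. PLXNA2 stood at 13.3 TPM in MCC13, 0.782, 2.004 and 6.98 TPM in WaGa, MKL-1 and MKL-2, and 0.0620 TPM in REH. For PLXNA2 the MCC13 difference was 2.03 ± 1.05 (SE, limma, adjusted p = 0.326). PLXNC1, the SEMA7A receptor, stood at 2.31 TPM in MCC13, 0.379, 0.492 and 0.432 TPM in WaGa, MKL-1 and MKL-2, and 10.5 TPM in REH. It was higher in MCC13 (log2 difference 1.21 ± 0.16, SE, limma, adjusted p = 0.0423), and lower in WaGa, MKL-1 and MKL-2 than in REH (log2 difference -3.01 ± 0.23, SE, limma, adjusted p = 0.0134). The MCC13 call for PLXNC1 was lost with no filter, with no variance trend and with a pseudocount of 0.1 (adjusted p over other settings 0.0281 to 0.0856). In MCC13 PLXNC1 and its ligand SEMA7A were thus both above WaGa, MKL-1 and MKL-2.

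Both neuropilins, co-receptors for class 3 semaphorins and for VEGF, were highest in MCC13. NRP1 stood at 44.8 TPM in MCC13, 18.3, 16.8 and 14.8 TPM in WaGa, MKL-1 and MKL-2, and 3.52 TPM in REH. For NRP1 the difference was 1.38 ± 0.29 (SE, limma, adjusted p = 0.0943) in MCC13 against WaGa, MKL-1 and MKL-2. Against REH, NRP1 in WaGa, MKL-1 and MKL-2 differed by 1.96 ± 0.34 (SE, limma, adjusted p = 0.0555). Neither difference of NRP1 passed, although the second did under 3 of its other settings (range 0.0339 to 0.0699). NRP2 stood at 18.2 TPM in MCC13, 0.756, 8.31 and 2.46 TPM in WaGa, MKL-1 and MKL-2, and 4.23 TPM in REH. For NRP2 the MCC13 difference was 2.32 ± 1.14 (SE, limma, adjusted p = 0.308).

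EFNA3 led the ephrin-A ligands, which are anchored by GPI, in WaGa, MKL-1 and MKL-2, and EFNA4 led them in MCC13 and REH. EFNA1, the main ligand of EPHA2, stood at 4.45 TPM in MCC13, 42.3, 38.5 and 47.7 TPM in WaGa, MKL-1 and MKL-2, and 2.51 TPM in REH. It was lower in MCC13 (log2 difference -3.00 ± 0.28, SE, limma, adjusted p = 0.0191), and higher in WaGa, MKL-1 and MKL-2 than in REH (log2 difference 3.64 ± 0.28, SE, limma, adjusted p = 0.0138). EFNA3 stood at 8.54 TPM in MCC13, 104, 87.5 and 73.8 TPM in WaGa, MKL-1 and MKL-2, and 28.8 TPM in REH. EFNA3 was lower in MCC13 (log2 difference -3.21 ± 0.29, SE, limma, adjusted p = 0.0189), with MCC13 below all 4 other lines. A second row carries the name EFNA3, so reads could be split between the pair.

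EFNA4 stood at 12.2 TPM in MCC13, 6.97, 5.56 and 2.08 TPM in WaGa, MKL-1 and MKL-2, and 37.9 TPM in REH. For EFNA4 the MCC13 difference was 1.27 ± 0.74 (SE, limma, adjusted p = 0.373). EFNA5, a topographic map cue of the visual system, stood at 11.2 TPM in MCC13, 10.7, 46.6 and 42.01 TPM in WaGa, MKL-1 and MKL-2, and 0.0238 TPM in REH. For EFNA5 the MCC13 difference was -1.24 ± 1.04 (SE, limma, adjusted p = 0.509). MCC13 and WaGa had like EFNA5 levels. EFNA2 stood at 0.204 TPM in MCC13, 0.177, 1.14 and 0.147 TPM in WaGa, MKL-1 and MKL-2, and 15.8 TPM in REH. REH was far above the rest, with a difference of -3.62 ± 0.51 (SE, limma, adjusted p = 0.0311) for the 4 Merkel cell carcinoma lines and -3.56 ± 0.52 (SE, limma, adjusted p = 0.0394) for WaGa, MKL-1 and MKL-2. Both EFNA2 calls were lost with a pseudocount of 0.1, and that without MCC13 also with no filter (adjusted p over other settings 0.0225 to 0.115 and 0.0332 to 0.0947).

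The ephrin-B ligands, transmembrane proteins that signal back into the cell that bears them, showed no passing difference. EFNB2, the ligand of EPHB4 in vessels, stood at 48.3 TPM in MCC13, 20.4, 29.3 and 21.3 TPM in WaGa, MKL-1 and MKL-2, and 39.4 TPM in REH. For EFNB2 the MCC13 difference was 1.02 ± 0.34 (SE, limma, adjusted p = 0.187). EFNB1 stood at 14.1 TPM in MCC13, 64.4, 36.2 and 23.1 TPM in WaGa, MKL-1 and MKL-2, and 50.3 TPM in REH. For EFNB1 the MCC13 difference was -1.36 ± 0.69 (SE, limma, adjusted p = 0.316). EFNB3 stood at 9.51 TPM in MCC13, 20.7, 27.4 and 7.10 TPM in WaGa, MKL-1 and MKL-2, and 0.0986 TPM in REH. MCC13 was the highest line for EFNB2 and the lowest for EFNB1, and none of the 3 passed in any comparison.

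EPHA2, the receptor of EFNA1 and a gene of epithelial and invasive tumour cells, was the most abundant guidance gene in MCC13. It stood at 536 TPM in MCC13, 0.607, 7.65 and 1.49 TPM in WaGa, MKL-1 and MKL-2, and 0.207 TPM in REH. The MCC13 level was 70.0 times the highest of WaGa, MKL-1 and MKL-2, while these 3 differed 12.6-fold among themselves. The difference of 7.36 ± 1.18 (SE, limma, adjusted p = 0.0600) did not pass, and passed among genes averaging 5 TPM or more (adjusted p = 0.0377, range over other settings 0.0377 to 0.0899). Between EPHA2 and its ligand EFNA1 the order of MCC13 and the other 3 lines was opposite.

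EPHA1, the founding member of the Eph family, stood at 2.02 TPM in MCC13, 0.0167, 0.0747 and 0.0724 TPM in WaGa, MKL-1 and MKL-2, and 0.904 TPM in REH. It was higher in MCC13 (log2 difference 1.52 ± 0.12, SE, limma, adjusted p = 0.0144), a call lost without the variance trend (adjusted p = 0.0544, range over other settings 0.00954 to 0.0544). An annotated antisense transcript lies at EPHA1, so its level is uncertain where strand was not used.

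The receptors EPHA3 to EPHA7, which pattern the nervous system, split WaGa from MKL-1 and MKL-2. Together they summed to 29.1 TPM in MCC13, 1.22, 50.3 and 41.0 TPM in WaGa, MKL-1 and MKL-2, and 5.76 TPM in REH. None of the 5 reached 1 TPM in WaGa. EPHA3 stood at 0.514 TPM in MCC13, 0.872, 24.3 and 20.99 TPM in WaGa, MKL-1 and MKL-2, and a listed 0 in REH, above 1 TPM in MKL-1 and MKL-2 only. EPHA4, which binds both ephrin classes, stood at 8.99 TPM in MCC13, 0.175, 5.10 and 9.43 TPM in WaGa, MKL-1 and MKL-2, and 0.0546 TPM in REH. The pattern differed between members. EPHA5 stood at 12.3 TPM in MCC13, 9.67 and 0.284 TPM in MKL-1 and MKL-2, a listed 0 in WaGa, and 0.0134 TPM in REH, above 1 TPM in MCC13 and MKL-1 only. EPHA6 stood at 3.47 TPM in MCC13, 0.123, 5.25 and 3.47 TPM in WaGa, MKL-1 and MKL-2, and a listed 0 in REH. EPHA7 stood at 3.73 TPM in MCC13, 0.0502, 6.04 and 6.85 TPM in WaGa, MKL-1 and MKL-2, and 5.69 TPM in REH, low in WaGa alone. EPHA10, which lacks an active kinase, was highest in WaGa, at 0.613 TPM in MCC13, 17.9, 9.70 and 5.60 TPM in WaGa, MKL-1 and MKL-2, and 0.101 TPM in REH. For EPHA10 the MCC13 difference was -2.77 ± 0.77 (SE, limma, adjusted p = 0.147).

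**Figure D5:**
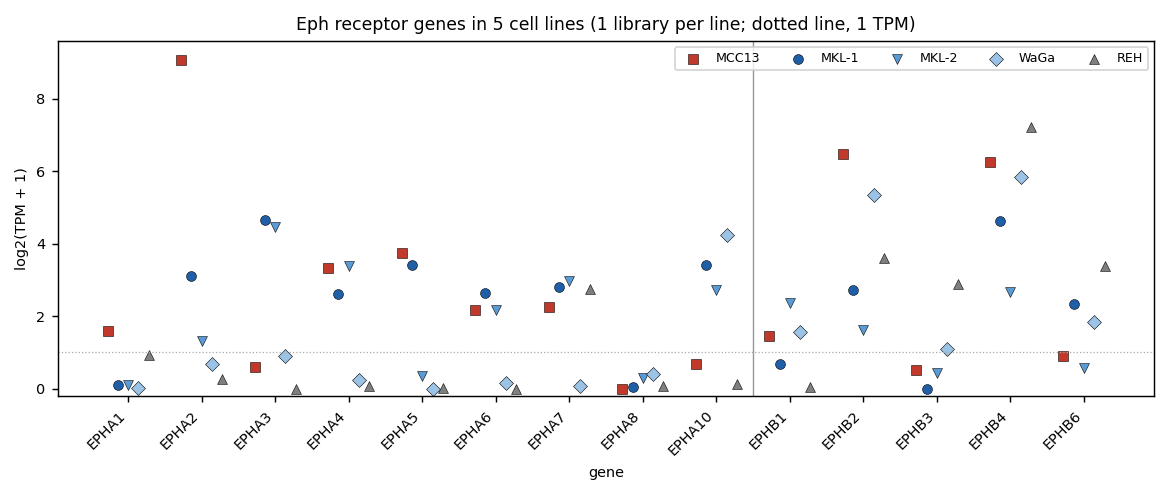
log2(TPM + 1) of the 14 Eph receptor genes (x axis; EphA left of the grey line, EphB right) in each of the 5 lines (symbols, 1 library each; dotted line at 1 TPM). EPHA2 in MCC13 stands alone at the top, WaGa lies below 1 TPM for EPHA3 to EPHA7, and MKL-2 is the lowest line for EPHB2 and EPHB4.

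EphB receptors were carried by EPHB2 and EPHB4, which together summed to 163 TPM in MCC13, 96.1, 29.2 and 7.45 TPM in WaGa, MKL-1 and MKL-2, and 159 TPM in REH. EPHB4, the venous receptor of EFNB2, stood at 74.8 TPM in MCC13, 56.8, 23.6 and 5.40 TPM in WaGa, MKL-1 and MKL-2, and 148 TPM in REH. For EPHB4 the MCC13 difference was 1.86 ± 1.45 (SE, limma, adjusted p = 0.485). EPHB2 stood at 87.8 TPM in MCC13, 39.2, 5.61 and 2.06 TPM in WaGa, MKL-1 and MKL-2, and 11.1 TPM in REH. For EPHB2 the MCC13 difference was 3.25 ± 1.74 (SE, limma, adjusted p = 0.339). WaGa stood above MKL-1 and MKL-2 for both, and neither difference passed. EPHB1 stood at 1.75 TPM in MCC13, 1.96, 0.612 and 4.19 TPM in WaGa, MKL-1 and MKL-2, and 0.0271 TPM in REH. EPHB3 stood at 0.432 TPM in MCC13, 1.13, 0.000180 and 0.341 TPM in WaGa, MKL-1 and MKL-2, and 6.42 TPM in REH. EPHB6, which has no active kinase, stood at 0.869 TPM in MCC13, 2.56, 4.07 and 0.478 TPM in WaGa, MKL-1 and MKL-2, and 9.37 TPM in REH. REH was the highest line for EPHB3 and EPHB6.

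Slit ligands were abundant in WaGa, MKL-1 and MKL-2. SLIT1, expressed in the developing brain, stood at 0.0452 TPM in MCC13, 19.7, 30.8 and 17.6 TPM in WaGa, MKL-1 and MKL-2, and 0.00305 TPM in REH. It was lower in MCC13 (log2 difference -4.46 ± 0.50, SE, limma, adjusted p = 0.0292), and higher in WaGa, MKL-1 and MKL-2 than in REH (log2 difference 4.52 ± 0.50, SE, limma, adjusted p = 0.0240). SLIT2, the best studied Robo ligand, stood at 6.07 TPM in MCC13, 25.7, 41.7 and 59.8 TPM in WaGa, MKL-1 and MKL-2, and 6.59 TPM in REH. For SLIT2 the MCC13 difference was -2.54 ± 0.58 (SE, limma, adjusted p = 0.111). MCC13 and REH had like SLIT2 levels, below all 3 other lines. SLIT3 stood at 6.63 TPM in MCC13, 0.792, 0.622 and 1.27 TPM in WaGa, MKL-1 and MKL-2, and a listed 0 in REH and had the opposite order. For SLIT3 the MCC13 difference was 2.02 ± 0.33 (SE, limma, adjusted p = 0.0615) that passed after quantile normalization alone (adjusted p = 0.0426, range over other settings 0.0426 to 0.114).

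All Robo receptors were below 1 TPM in REH. ROBO1 stood at 38.2 TPM in MCC13, 60.1, 63.6 and 44.8 TPM in WaGa, MKL-1 and MKL-2, and 0.363 TPM in REH. It was higher in the 4 Merkel cell carcinoma lines than in REH (log2 difference 5.24 ± 0.45, SE, limma, adjusted p = 0.00878), and in WaGa, MKL-1 and MKL-2 alone (log2 difference 5.37 ± 0.35, SE, limma, adjusted p = 0.0106). ROBO2 stood at 0.840 TPM in MCC13, 75.7, 92.8 and 42.5 TPM in WaGa, MKL-1 and MKL-2, and 0.0524 TPM in REH. It was lower in MCC13 (log2 difference -5.21 ± 0.57, SE, limma, adjusted p = 0.0274), and higher in WaGa, MKL-1 and MKL-2 than in REH (log2 difference 6.01 ± 0.57, SE, limma, adjusted p = 0.0184). ROBO1 and ROBO2, the main Slit receptors of neurons, both lie on chromosome 3, and in MCC13 ROBO1 was above 1 TPM and ROBO2 below it. ROBO3, which lets commissural axons cross the midline, stood at 24.5 TPM in MCC13, 45.98, 10.8 and 28.05 TPM in WaGa, MKL-1 and MKL-2, and 0.0158 TPM in REH. For ROBO3 the MCC13 difference was 0.01 ± 0.94 (SE, limma, adjusted p = 0.995), and that of the 4 Merkel cell carcinoma lines against REH was 4.64 ± 0.85 (SE, limma, adjusted p = 0.0605). The ROBO3 difference against REH did not pass, and passed with a pseudocount of 0.1 (adjusted p = 0.0228, range over other settings 0.0228 to 0.0754). ROBO4, the Robo of endothelium, stood at 2.96 TPM in MCC13, 0.0240, 0.0800 and 0.00739 TPM in WaGa, MKL-1 and MKL-2, and a listed 0 in REH. ROBO4 was higher in MCC13 (log2 difference 1.93 ± 0.13, SE, limma, adjusted p = 0.0113). Of the endothelial markers matched, 4 of 5, all were below 1 TPM in MCC13 (sum 0.973 TPM), against sums of 5.15 to 14.6 TPM in WaGa, MKL-1 and MKL-2 and 1.54 TPM in REH, with CLDN5 the largest part in each of these 4 lines.

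NTN4 led the netrins in MCC13, and NTN3 in the other 4 lines. NTN4, a laminin-like netrin of basement membranes, stood at 59.7 TPM in MCC13, 0.109 and 0.0492 TPM in MKL-1 and MKL-2, a listed 0 in WaGa, and 0.0175 TPM in REH. It was higher in MCC13 (log2 difference 5.85 ± 0.27, SE, limma, adjusted p = 0.00855). NTN3 stood at 0.000970 TPM in MCC13, 20.3, 16.9 and 23.6 TPM in WaGa, MKL-1 and MKL-2, and 11.3 TPM in REH. NTN3 was lower in MCC13 (log2 difference -4.40 ± 0.40, SE, limma, adjusted p = 0.0190), with MCC13 below all 4 other lines. NTN1, the netrin of the floor plate, stood at 3.61 TPM in MCC13, 1.01 and 2.81 TPM in WaGa and MKL-1, a listed 0 in MKL-2, and 3.59 TPM in REH. For NTN1 the MCC13 difference was 1.23 ± 0.89 (SE, limma, adjusted p = 0.458). NTN5 stood at 0.0708 TPM in MCC13, 0.381, 0.143 and 0.537 TPM in WaGa, MKL-1 and MKL-2, and 1.79 TPM in REH, above 1 TPM in REH only.

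The netrin receptors UNC5A to UNC5D and DCC all stayed below 1 TPM in MCC13 and REH. NEO1 (neogenin), a relative of DCC that also binds netrins, did not follow them and stood at 20.2 TPM in MCC13, 1.31, 46.4 and 4.55 TPM in WaGa, MKL-1 and MKL-2, and 25.2 TPM in REH. UNC5A stood at 0.312 TPM in MCC13, 150.0, 27.9 and 69.9 TPM in WaGa, MKL-1 and MKL-2, and 0.0437 TPM in REH. For UNC5A the MCC13 difference was -5.69 ± 1.10 (SE, limma, adjusted p = 0.0846). UNC5B stood at 0.0465 TPM in MCC13, 40.2, 90.1 and 29.4 TPM in WaGa, MKL-1 and MKL-2, and 0.297 TPM in REH. It was lower in MCC13 (log2 difference -5.53 ± 0.78, SE, limma, adjusted p = 0.0476), and higher in WaGa, MKL-1 and MKL-2 than in REH (log2 difference 5.23 ± 0.78, SE, limma, adjusted p = 0.0410). The MCC13 call for UNC5B was lost with no filter and with no variance trend (adjusted p over other settings 0.0258 to 0.0690), and the call against REH with no filter (0.0252 to 0.0608). An antisense transcript is annotated at UNC5B, so its level is uncertain if strand was not used.

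DCC, the attractive netrin receptor, was listed at 0 in MCC13, stood at 11.4, 9.21 and 4.95 TPM in WaGa, MKL-1 and MKL-2, and was listed at 0 in REH. DCC did not pass in MCC13 at the pseudocount of 1, and passed as lower with 0.1, which rests on the listed 0. UNC5C stood at 0.00645 TPM in MCC13, 9.88, 1.66 and 0.0656 TPM in WaGa, MKL-1 and MKL-2, and a listed 0 in REH. UNC5D was listed at 0 in MCC13, stood at 0.0130, 0.00483 and 12.6 TPM in WaGa, MKL-1 and MKL-2, and at 0.0580 TPM in REH. MKL-2 alone therefore carried UNC5D, while UNC5A, UNC5B and DCC were shared by WaGa, MKL-1 and MKL-2. MCC13 lay below the range of WaGa, MKL-1 and MKL-2 for all 5 receptors of this family. That position was shared by 43.4% of all genes tested, and 1 of the 5 passed as lower (background 2.47%). For UNC5D the position rested on the listed 0, with WaGa and MKL-1 no higher than 0.0130 TPM. All 5 receptors entered the test through WaGa, MKL-1 or MKL-2 only, so the filter already required a difference. Their counts beside the background are therefore no support for a difference of the family. The ligand NTN1, unlike these receptors, stood at a like level in MCC13, MKL-1 and REH.

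The 4 genes matched by name only did not follow these families. UNC50, a Golgi-related gene and no netrin receptor, stood at 42.8 TPM in MCC13, 31.3, 49.6 and 45.5 TPM in WaGa, MKL-1 and MKL-2, and 43.4 TPM in REH, within 31.3 to 49.6 TPM in all lines. UNC5CL, a receptor-like protein, stood at 0.171 TPM in MCC13, 1.40, 0.479 and 2.45 TPM in WaGa, MKL-1 and MKL-2, and 2.65 TPM in REH. ROBO2P1, a pseudogene, reached 0.380 TPM in WaGa and was listed at 0 elsewhere. The second EFNA3 row (ENSG00000251246) reached 0.444 TPM in MKL-2 and was listed at 0 elsewhere.

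Guidance genes were placed in GENCODE 29 order on each chromosome without the other genes that lie between them, so their nearness was not measured. Some that follow each other in this order shared a direction in MCC13, while others did not. On chromosome 7 the order is SEMA3C, SEMA3E, SEMA3A and SEMA3D. In MCC13 SEMA3E was lower and SEMA3D higher than in WaGa, MKL-1 and MKL-2. On chromosome 1, EFNA4, EFNA3 and EFNA1 follow each other among the guidance genes. EFNA3 and EFNA1 were lower in MCC13, while EFNA4 stood at 12.2 TPM there, against 2.08 to 6.97 TPM in WaGa, MKL-1 and MKL-2.

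Other genes of the pathway were read from a list of 61 co-receptors, further cues and intracellular effectors. In MCC13 5 of 56 tested differed (8.93%, background 8.95%), with a median difference of -0.25. Of these, 2 were higher (3.57%, background 6.47%) and 3 lower (5.36%, background 2.47%). RRAS, a small GTPase acted on by plexins, stood at 91.9 TPM in MCC13, 3.58, 1.15 and 3.67 TPM in WaGa, MKL-1 and MKL-2, and 23.8 TPM in REH. RRAS was higher in MCC13 (log2 difference 4.70 ± 0.67, SE, limma, adjusted p = 0.0492), close to the threshold of 0.05. TRIO, an exchange factor downstream of DCC, stood at 140.4 TPM in MCC13, 33.7, 34.8 and 35.1 TPM in WaGa, MKL-1 and MKL-2, and 34.2 TPM in REH. TRIO was higher (log2 difference 1.99 ± 0.20, SE, limma, adjusted p = 0.0226). CNTN2, an axonal adhesion protein also called TAG-1, was listed at 0 in MCC13 and stood at 79.0, 91.5 and 84.0 TPM in WaGa, MKL-1 and MKL-2 and 0.000412 TPM in REH. CNTN2 passed as lower in MCC13, a call that rests on the listed 0. DPYSL5, a collapsin response mediator, stood at 3.60 TPM in MCC13, 139, 119 and 209 TPM in WaGa, MKL-1 and MKL-2, and a listed 0 in REH. DPYSL5 was lower (log2 difference -5.05 ± 0.42, SE, limma, adjusted p = 0.0160). NRCAM, an adhesion co-receptor, stood at 0.213 TPM in MCC13, 40.6, 38.9 and 28.4 TPM in WaGa, MKL-1 and MKL-2, and a listed 0 in REH. NRCAM was lower (log2 difference -4.91 ± 0.38, SE, limma, adjusted p = 0.0144). CNTN2 and NRCAM entered the test through WaGa, MKL-1 and MKL-2 only, so the filter required a difference for both.

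MET, a receptor that associates with plexin B1, had the largest difference of this list in MCC13. It stood at 424 TPM in MCC13. In WaGa it was at 0.00848 TPM, in MKL-2 at 14.9 TPM and in REH at 0.0573 TPM, while MKL-1 was listed at 0. The difference of 7.40 ± 2.09 (SE, limma, adjusted p = 0.151) for MCC13 did not pass. MICAL2, an actin-oxidizing effector, stood at 382 TPM in MCC13, 20.5, 4.27 and 14.2 TPM in WaGa, MKL-1 and MKL-2, and a listed 0 in REH. For MICAL2 the MCC13 difference was 5.00 ± 0.98 (SE, limma, adjusted p = 0.0862) that did not pass. Against REH 4 of 57 differed in the 4 Merkel cell carcinoma lines (7.02%, background 5.24%). SRGAP1 and DPYSL3 were higher (3.51%, background 1.09%), and LRRC4B and CD72 lower (3.51%, background 4.15%). SRGAP1 and DPYSL3 entered the test through the Merkel cell carcinoma lines only, and LRRC4B through REH only. For these genes the filter required a difference. In WaGa, MKL-1 and MKL-2 alone 13 of 57 differed (22.8%, background 13.3%). Higher were 9 (15.8%, background 4.89%) and lower were 4 (7.02%, background 8.42%). Of the 9 higher, all but CHN1 entered the test through WaGa, MKL-1 and MKL-2 only. Of the 4 lower, ABLIM1 and LRRC4B entered through REH only. For all of these the filter again required a difference, so the counts are no support for them. The calls of DPYSL5 and NRCAM against REH also rest on a listed 0. CD72, a B-cell receptor for SEMA4D, stood at 1.08 TPM in MCC13, 0.739, 1.49 and 2.54 TPM in WaGa, MKL-1 and MKL-2, and 38.9 TPM in REH.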

How the data were processed

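RNA-seq libraries of 5 cell lines, 1 each, were made from oligo-dT enriched RNA with a directional kit, per the labels' protocols. The authors deposited TPM values for 57905 genes. Per the submitters' processing notes, which give no order, these came through STAR 2.4.5b, SAMtools 0.1.19, StringTie 1.3.5 and bcl2fastq 2.20, with the build named as GRCh37 and hg19. The annotation was not given in the sources used here, nor was the use of strand. TPM keeps no depth, so precision from counting is unknown. The 2 columns that match no sample and the PAX5 exon values were not used.

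Members were matched by symbol. Differences of log2(TPM + 1) values were fitted in R 4.3.3 by limma 3.58.1 (variance trend, 2-sided, Benjamini-Hochberg over all genes tested). A gene was tested where any line compared reached 1 TPM. The fits had 2 residual degrees of freedom, and 3 with all 5 lines, and the spread of a lone line was taken to be that of the others. The fit was also run on simulated data in which the lone line varied as the others do, so that assumption itself was not tested.

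The members and lists were chosen with earlier results of these data known. Every member above 1 TPM in a line is named with its levels. A difference is given for members that passed in any comparison and for up to 2 more per family with the largest difference in MCC13. Of the pathway list, those passing in MCC13 and the 4 with the largest difference are named. SRGAP1, DPYSL3, LRRC4B, CD72, CHN1 and ABLIM1 were named after their values were seen. Alternatives were a pseudocount of 0.1, no filter, a mean of 5 TPM or more, quantile normalization, no variance trend, 0.5 or 5 TPM as expressed, and each line left out. Gene order came from GENCODE 29 and promoter windows from RefSeq (GRCh38.p14), matched by symbol.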

Additional observations from a re-analysis of the deposited data

Results flagged for a closer look

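Within the 4 Merkel cell carcinoma lines, 16 of 66 guidance genes had 1 line far from the other 3, by a gap that is past Dixon's limit for 4 samples as a share of the whole range on log2(TPM + 1). Chance flags about 1 in 20 groups (5%), but these lines differ more than that: of all 20698 genes with 1 TPM or more in any of the 4 lines, 14% were past the same limit, beside 24.2% of the guidance genes. MCC13 was that line for 14 of the 16 (21.2%, all genes 9.52%), the highest for 6 (9.09%, all genes 6.36%) and the lowest for 8 (12.1%, all genes 3.16%).

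The 6 genes for which MCC13 stood highest were SEMA3D (2.81 TPM in MCC13, at most 0.0134 TPM in WaGa, MKL-1 and MKL-2), SEMA7A (39.7 TPM, at most 2.996 TPM), PLXNC1 (2.31 TPM, at most 0.492 TPM), EPHA1 (2.02 TPM, at most 0.0747 TPM), ROBO4 (2.96 TPM, at most 0.0800 TPM) and NTN4 (59.7 TPM, at most 0.109 TPM). Of these 6, all but SEMA7A reached 1 TPM in MCC13 alone of the 4 lines, so that their place among the genes examined already required MCC13 to be higher. The 8 for which MCC13 stood lowest were SEMA3E (0.0255 TPM in MCC13, at least 18.2 TPM in WaGa, MKL-1 and MKL-2), SEMA4D (7.75 TPM, at least 43.6 TPM), SEMA6C (3.89 TPM, at least 33.3 TPM), PLXNA3 (24.9 TPM, at least 61.8 TPM), EFNA1 (4.45 TPM, at least 38.5 TPM), EFNA3 (8.54 TPM, at least 73.8 TPM), SLIT1 (0.0452 TPM, at least 17.6 TPM) and NTN3 (0.00097 TPM, at least 16.9 TPM). Of these 8, SEMA3E, SLIT1 and NTN3 were below 1 TPM in MCC13 and entered through the other lines only. Of the genes flagged for MCC13, all but PLXNA3 had passed limma's adjusted threshold in the MCC13 comparison. The flags use the same values as that comparison and are no separate support for it.

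The other two lay outside MCC13. EFNA2 stood at 1.14 TPM in MKL-1, against 0.147 to 0.204 TPM in the other 3 Merkel cell carcinoma lines. UNC5D stood at 12.6 TPM in MKL-2, against at most 0.0130 TPM in the other 3. EFNA2 and UNC5D each reached 1 TPM only in the line flagged, so their place among the genes examined already required that line to be higher.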

How the results depend on the processing

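No paired analysis was possible because the replicate numbers follow accession order only and REH has 1 library. Of the 15 guidance genes called in MCC13, 12 also passed under every other setting that gave a value with all lines kept. So did 1 of 4 in the 4 Merkel cell carcinoma lines against REH and 7 of 11 in WaGa, MKL-1 and MKL-2 against REH; the others are given beside their values above. No call was made without all of WaGa, MKL-1 and MKL-2, although the differences of the called guidance genes kept their sign and moved by at most 0.45 on the log2 scale (NTN4 in MCC13 5.81 to 5.89, ROBO1 in the 4 lines against REH 5.13 to 5.37). With 1 line left out, guidance genes called were 0 in MCC13, 0 to 11 in the 4 lines against REH (11 without MCC13) and 0 in WaGa, MKL-1 and MKL-2 against REH. Pathway list calls were 0, 0 to 13 and 0, and calls among all genes 0, 0 to 2828 and 0. Unadjusted p under 0.05 was then met by 4414 to 4978 genes in MCC13, 3194 to 3432 in the 4 lines when WaGa, MKL-1 or MKL-2 was left out, and 5296 to 6068 without MCC13 in the fit. Each such fit has 1 fewer residual degree of freedom.

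Among genes averaging 5 TPM or more, 1 of 44 guidance genes and 1 of 47 pathway list genes were called in the 4 lines against REH. All genes gave 288 of 13528 there. In MCC13 8 of 46 pathway list genes were called at that mean, beside 1167 of 13268 of all genes. With no filter 8 of 60 pathway list genes were called in MCC13, beside 3312 of 38552 of all genes. In WaGa, MKL-1 and MKL-2 against REH, all-gene calls were 1841 of 13295 among genes averaging 5 TPM or more. With no filter they were 5008 of 39018 there, and 3694 of 40503 in the 4 lines. Fewer or more genes tested is part of these settings, and beyond that the cause was not tested. With 5 TPM as the level for expressed, 26 guidance genes were counted in REH, against 40 at 1 TPM.

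Against REH, EFNA5 in the 4 lines, and DCC, EFNA5, EPHA10, ROBO3, SEMA6A and UNC5A in WaGa, MKL-1 and MKL-2, passed with a pseudocount of 0.1 or among genes averaging 5 TPM or more only. For DCC this rests on the 0 listed in REH.

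Differences that reversed were not called. In the 4 lines against REH, NRP2 (0.13) turned to -0.0155 with a pseudocount of 0.1 and to -0.16 after quantile normalization, and with 1 line left out it ran from -0.45 (without MCC13) to 0.70, being -0.10 without MKL-1. With 1 line left out in the same comparison, EPHB2 ran from -0.37 (without MCC13) to 1.25, SEMA7A from -0.0488 (without MCC13) to 1.20, and NTN3 from -0.76 to 0.78 (without MCC13). In WaGa, MKL-1 and MKL-2 against REH, EPHB2 ran from -1.42 to 0.43 (without MKL-2), SEMA6C from -0.18 to 0.0749 (without MKL-2), SEMA7A from -0.14 to 0.0573 (without MKL-1), and NRP2 from -1.08 to 0.12 (without WaGa). In MCC13, ROBO3 ran from -0.54 (without MKL-1) to 0.46.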
